A study of Arabidopsis thaliana with 8 samples.

Results

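The regions described here are the summits that anti-GFP ChIP-seq gave in Col-0, the Arabidopsis thaliana accession used as the control of an ARR12-GFP experiment. They comprise every summit of both Col-0 lists, 729 of the 14396 summits in the 4 lists, and no value was used to choose among them. Col-0 replicate 1 had 428 summits, of which 199 were nuclear and 229 lay on the chloroplast genome. Col-0 replicate 2 had 301, of which 251 were nuclear and 50 were on the chloroplast genome. No Col-0 summit lay on the mitochondrial genome. A nuclear or chloroplast summit is called shared when the other Col-0 list had a summit within 200 bp.

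The series compared Col-0, which the design text names as the control genotype, with plants carrying ARR12-GFP, a fusion of a B-type response regulator to green fluorescent protein. The sample titles call the control GFP and its genotype label reads control, so the absence of a tag rests on the design text and was not tested. Root apical meristems of both genotypes, in the Col-0 ecotype, were taken from seedlings that had 5 days of stratification and then 3 days of growth at 22 °C, and each genotype had 2 biological replicates of the immunoprecipitation and of its input. The promoter that drives ARR12-GFP is not given in the sources used here, nor is whether the plants also lack the native gene. The lists of ARR12-GFP held 8175 and 5492 summits, of which 38 and 0 were on the chloroplast genome. Read numbers are unknown from the lists, so the number of summits was not set against depth. Intervals beside shares are 95% exact binomial ones, which cover error of counting alone.

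In plants without the tag an antibody against GFP has no intended target, so a summit marks DNA that was called above background without that target. Such background signal is known in ChIP-seq from repeated DNA and from strongly transcribed or accessible chromatin. In Arabidopsis the regions around the centromeres are rich in transposons, satellite repeats and pseudogenes and poor in expressed genes. The nuclear rRNA genes stand in long tandem arrays on chromosomes 2 and 4, and the reference genome holds only part of these copies. Chloroplast DNA is present in many copies per cell, also in the plastids of roots.

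Col-0 summits crowded towards the centromeres, where ARR12-GFP summits were scarce. The pericentromere was taken as 2 Mb on either side of the middle of the 1 Mb window with the fewest protein-coding bases on each chromosome, which covers 16.8% of the nuclear span. In Col-0 replicate 1 it held 85 of 199 nuclear summits (42.7%, interval 35.7 to 49.9), and in replicate 2 it held 112 of 251 (44.6%, 38.4 to 51.0). In ARR12-GFP it held 259 of 8137 (3.18%) and 168 of 5492 (3.06%). Both Col-0 shares lay above the share of bases and both ARR12-GFP shares below it. The means were 43.7% ± 1.35 in Col-0 and 3.12% ± 0.0877 in ARR12-GFP (SD, n = 2 each), a difference of 40.5 percentage points. An exact permutation test, two-sided, returned p = 0.333, which is the lowest value possible with 6 labellings of 2 against 2 libraries.

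In relative terms the contrast was sharper within 500 kb of the window middles. There lay 23.6% and 21.9% of the Col-0 summits, against 0.258% and 0.237% of those of ARR12-GFP. Most of these Col-0 summits belonged to clusters described below, with 14 and 17 on chromosome 3, 5 and 8 on chromosome 4 and 18 and 19 on chromosome 5. Within 100 kb it did not sharpen further, with 4.52% and 3.98% in Col-0 against 0.111% and 0.164% in ARR12-GFP. Spread over the chromosomes was even in coarse terms, with 34 and 44 Col-0 summits on chromosome 1, 37 and 45 on chromosome 2, 45 and 63 on chromosome 3, 35 and 40 on chromosome 4, and 48 and 59 on chromosome 5. Chromosome 1, the longest, therefore held 17.1% and 17.5% of the Col-0 summits, against 26.2% and 26.4% of the ARR12-GFP summits.

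**Figure D1:**
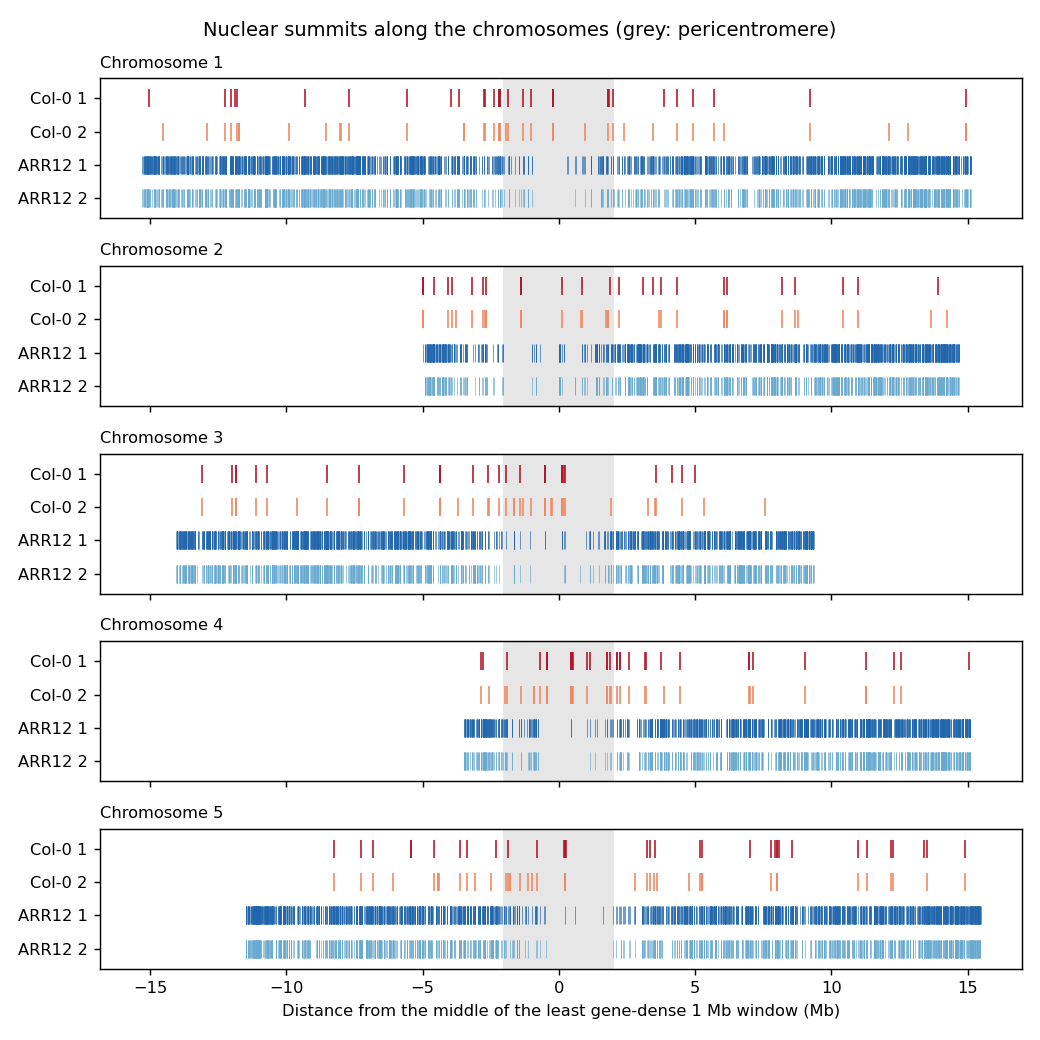
Each tick is a nuclear summit, placed by its distance in Mb from the middle of the least gene-dense 1 Mb window of its chromosome; rows are Col-0 replicates 1 and 2 above ARR12-GFP replicates 1 and 2, and grey marks the pericentromere. Col-0 ticks bunch in the grey bands, which hold 42.7% and 44.6% of them, while ARR12-GFP ticks thin out there to 3.18% and 3.06%.

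Many of the pericentromeric summits stood in a few dense clusters. Chains of Col-0 summits no more than 20 kb apart that held at least 5 summits of each Col-0 list were counted as clusters, a definition chosen after the summits had been seen. There were 6, and 61 of the 199 nuclear summits of Col-0 replicate 1 (30.7%) and 69 of the 251 of replicate 2 (27.5%) lay in them. Of the pericentromeric summits, 31 of 85 and 50 of 112 lay outside the clusters. The same spans held 8 summits of ARR12-GFP replicate 1 and 0 of replicate 2. Without the clusters the pericentromere difference between Col-0 and ARR12-GFP was 21.9 percentage points.

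Of the 6 clusters, 2 lay on rRNA genes. The cluster at the start of chromosome 2, from 1920 to 9987 in TAIR10 coordinates, had 7 summits in each Col-0 list, and the one on chromosome 3, from 14195729 to 14202814, had 14 and 17. They lie beside AT2G01010 and AT2G01020 and around AT3G41768 and AT3G41979, the 4 nuclear rRNA genes of the annotation. Each of these genes had a summit of both Col-0 lists inside it or within 1000 bp, and none had one of ARR12-GFP. AT3G41768 held 2 summits of each Col-0 list, with 6 and 7 counted within 1000 bp and scores, on the authors' −log10 scale, of 13.3 to 36.1 in replicate 1 and 14.6 to 31.0 in replicate 2. At AT2G01020 the nearest summit stood 15 bp away in both Col-0 lists. The nearest summits of ARR12-GFP replicates 1 and 2 to that gene were 4034 and 91873 bp away. Elsewhere in the rRNA cluster spans ARR12-GFP replicate 1 did have summits, 1 on chromosome 2 and 3 on chromosome 3, while replicate 2 had 0. Among them was one of score 34.9, 2 bp from the Col-0 summit at 14202353. An ARR12-GFP summit lay within 200 bp of 5 of 21 (23.8%) and 8 of 24 (33.3%) Col-0 summits in these clusters.

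The summits of the chromosome 3 rRNA cluster repeated to the base. Of its summits, 13 in each Col-0 list lay within 10 bp of one in the other list, and positions such as 14198165, 14199003 and 14202118 were identical in both. The score 17.1 occurred 5 times among the 14 summits of Col-0 replicate 1, and 19.7 occurred 4 times among the 17 of replicate 2. On chromosome 2 the score 19.7 occurred 3 times among the 7 summits of replicate 2. Equal scores were not peculiar to these places, since 22.6% and 19.5% of all nuclear Col-0 summits, against 64.7% and 58.7% of nuclear ARR12-GFP summits, had a score that another nuclear summit of their list also had.

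The other 4 clusters lay inside pericentromeres, as did the rRNA cluster of chromosome 3, centred 99.3 kb from the window middle. The largest, on chromosome 5 from 11703564 to 11754081, had 18 and 19 Col-0 summits among pseudogenes and 1 summit of ARR12-GFP replicate 1. Chromosome 4, from 3951057 to 3983434, had 5 and 8, also with pseudogenes as the only annotated genes in the span. Chromosome 3, from 13587064 to 13597500, had 8 and 10 in a stretch with no annotated gene. The cluster on chromosome 2, from 3615841 to 3624637, had 9 and 8 and was the one with no ARR12-GFP summit at all. It spans the protein-coding genes AT2G07981 and AT2G08986, which held 4 and 5 summits of Col-0 replicate 1 and 3 and 5 of replicate 2, with the nearest summit of either ARR12-GFP list 381.5 kb away. A smaller group fell below the cluster definition: AT1G40104 held 4 and 3 Col-0 summits, up to scores of 29.5 and 30.6, and had no ARR12-GFP summit within 500 kb.

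**Figure D2:**
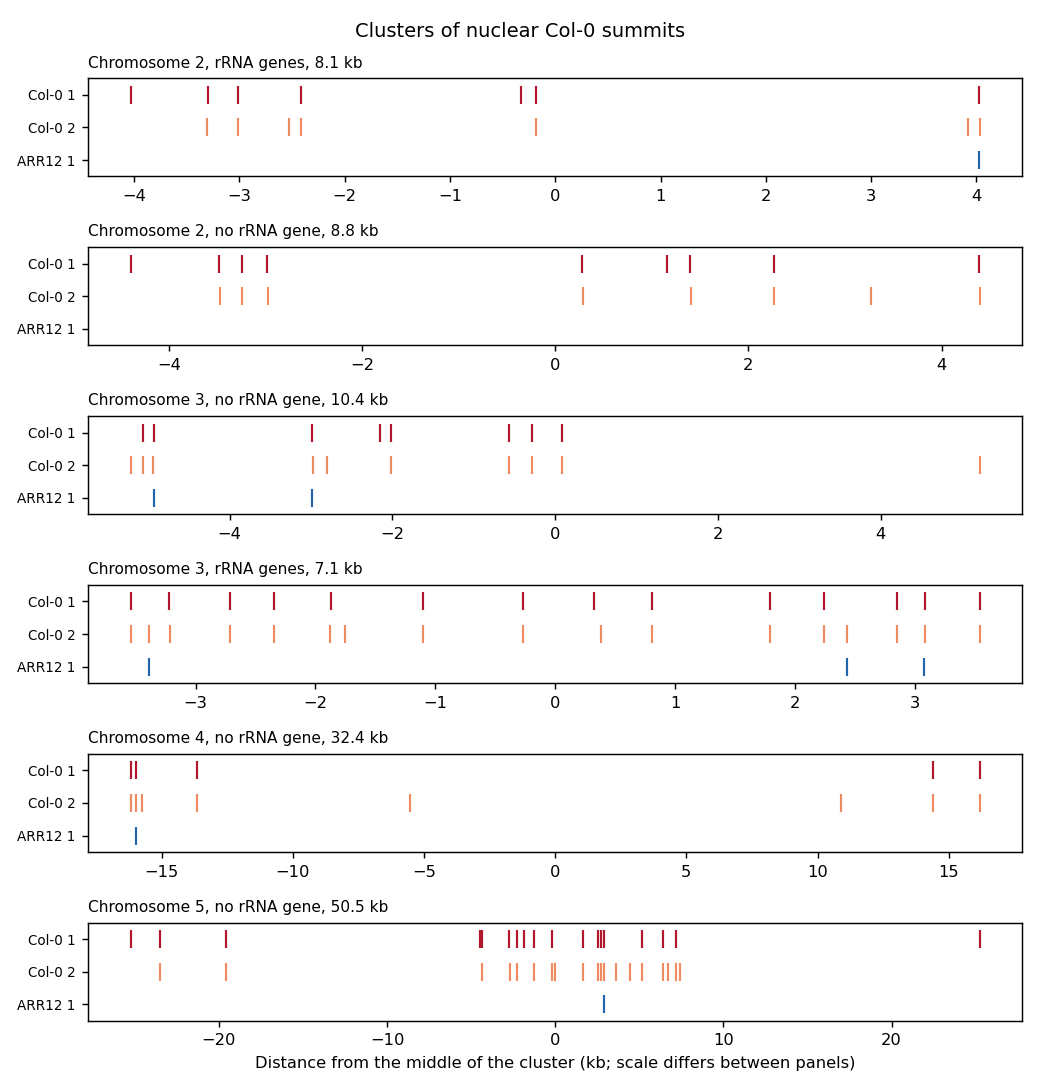
Each panel is a cluster of nuclear Col-0 summits, with ticks at the distance in kb from the middle of the cluster for Col-0 replicates 1 and 2 and below them ARR12-GFP replicate 1; ARR12-GFP replicate 2 had 0 summits in these spans and is not drawn. Ticks of the Col-0 lists stand over each other, 14 and 17 of them at the rRNA genes of chromosome 3, while ARR12-GFP replicate 1 has 8 in all panels together.

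Many nuclear summits recurred between the Col-0 libraries at nearly the same base. Within 200 bp, 162 of 199 summits of replicate 1 were shared (81.4%) and 165 of 251 of replicate 2 (65.7%), although the 200 bp windows around the other list covered 0.0781% and 0.0630% of the nuclear span. A partner within 10 bp, a limit chosen after the distances had been seen, was found for 113 summits in each list, which were 56.8% and 45.0% of all nuclear summits and 69.8% and 68.5% of the shared ones. Between the ARR12-GFP lists 437 of the 3575 matched summits of replicate 1 (12.2%) were that close. The median distance of matched summits was 5 bp in Col-0 and 51 bp in ARR12-GFP.

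Scores recurred as well as positions. Joining summits of both Col-0 lists within 200 bp gave 146 shared nuclear sites, over which the highest scores in the replicates had a Spearman rank correlation of 0.937, given as a description because the sites share their libraries. Sharing was more frequent at higher scores. With each list split into 4 score bands of near-equal size, from lowest to highest, 44%, 84%, 98.0% and 100% of replicate 1 summits and 30.2%, 49.2%, 87.1% and 96.8% of replicate 2 summits were shared. Summits with a partner within 10 bp had median scores of 18.8 in replicate 1 and 20.5 in replicate 2. Those 51 to 200 bp from their partner had medians of 5.57 and 6.14, and unshared ones of 4.44 and 4.88. Among the summits within 10 bp, 49 in each list were in clusters.

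**Figure D3:**
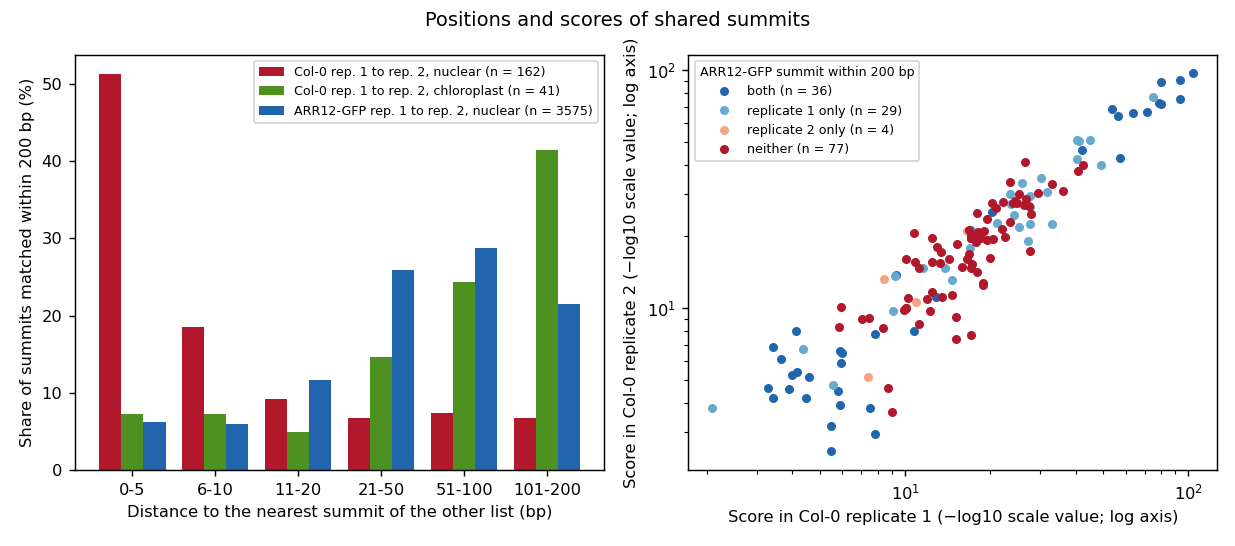
Left, share in percent of the summits matched within 200 bp by distance in bp to the nearest summit of the other list, for Col-0 replicate 1 on nuclear and chloroplast genomes and for ARR12-GFP replicate 1; right, scores of the 146 shared nuclear Col-0 sites in both replicates on log axes, coloured by the ARR12-GFP lists with a summit within 200 bp. Nuclear Col-0 distances pile up at 10 bp or less (69.8%), chloroplast ones do not (14.6%), and scores of the replicates follow each other.

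Relative to annotated bases, nuclear Col-0 summits were fewer inside protein-coding genes and pseudogenes and more frequent far from any gene. Inside the pericentromeres this did not hold for protein-coding genes, which held 21.2% and 15.2% of the Col-0 summits on 14.1% of bases. Most of these 18 and 17 summits lay in a few genes with several each. These were AT2G08986 (5 and 5), AT2G07981 (4 and 3), AT1G40104 (4 and 3) and AT3G41762 (3 and 4), the last in the chromosome 3 rRNA cluster. Inside protein-coding genes lay 29.6% and 21.1% of the Col-0 summits and 29.1% and 37.6% of the ARR12-GFP summits, while such genes cover 54.1% of the span. Within 1000 bp of a protein-coding gene, but in no gene, lay 26.1% and 31.1% in Col-0 and 44.9% and 39.9% in ARR12-GFP, on 19.0% of bases. Farther than 1000 bp from any gene lay 28.6% and 28.3% in Col-0 and 18.9% and 15.9% in ARR12-GFP, on 11.0% of bases. The strand of genes is not in the annotation, so promoters and 3′ flanks were counted alike.

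Inside or within 1000 bp of a protein-coding gene were 55.5% ± 2.48 of Col-0 summits and 77.8% ± 2.42 of ARR12-GFP summits (SD, n = 2 each), a difference of -22.2 percentage points (exact permutation test, two-sided, p = 0.333, the smallest possible). Position along the chromosome moved with this difference. Outside the pericentromeres the shares were 74.6% and 70.5% in Col-0 and 76.6% and 79.9% in ARR12-GFP, on 84.6% of bases, a difference of -5.71 points. Inside them they were 34.1% and 33.0% in Col-0 and 59.5% and 67.9% in ARR12-GFP, on 24.3% of bases. Without the clusters, over all regions, the difference was -13.1 points.

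Pseudogenes were the nearest gene of many Col-0 summits but rarely held one. The nearest gene was a pseudogene for 26.1% and 28.7% of the Col-0 summits and for 2.46% and 1.95% of the ARR12-GFP summits, against 16.6% of nuclear positions taken every 1 kb. Inside the pericentromeres it was so for 51.8% and 49.1% in Col-0 and 16.6% and 11.3% in ARR12-GFP, against 68.1% of positions, so there the Col-0 shares lay below the positions too. These pseudogenes lay at a median distance of 2950 and 2297.5 bp from the Col-0 summits of the whole nuclear set. Only 3 and 4 Col-0 summits (1.51% and 1.59%) lay in a pseudogene and in no other gene, although pseudogenes alone cover 8.65% of the nuclear span and 34.1% of the pericentromeres. Noncoding RNA genes were hit mainly at the rRNA clusters. They alone held 13 and 14 Col-0 summits (6.53% and 5.58%) and 3.02% and 3.10% of the ARR12-GFP summits on 1.35% of bases. The rRNA clusters held 10 and 12 of these Col-0 summits, 5 and 6 of them in AT3G06365, and outside these clusters 3 of 178 (1.69%) and 2 of 227 (0.881%) remained, near the share of bases.

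**Figure D4:**
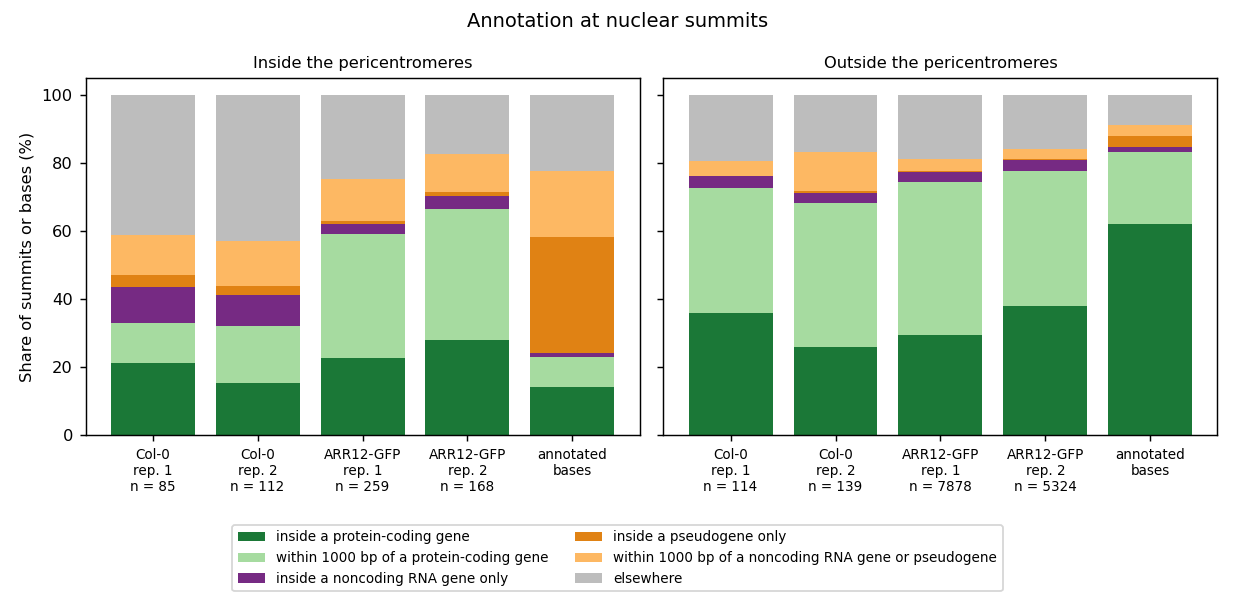
Bars stack the share in percent of nuclear summits in 6 annotation classes for Col-0 replicates 1 and 2, ARR12-GFP replicates 1 and 2 and, last, annotated bases, inside the pericentromeres (left) and outside (right). Inside, pseudogenes fill 34.1% of bases but 3.53% and 2.68% of Col-0 summits, and 41.2% and 42.9% of Col-0 summits lie in the class elsewhere.

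The strongest shared sites stood outside the clusters, at positions where ARR12-GFP replicate 1 also had a summit. The site ranked highest, on chromosome 1 at 9708228, scored 104.1 in Col-0 replicate 1 and 96.7 in replicate 2 and lay 633 bp from AT1G27880. It was followed by chromosome 2 at 5100002, with scores of 93.6 and 90.6, 103 bp from the pseudogene AT2G12510. On chromosome 3, 14305268 (80.1 and 89.0) and 14299402 (93.6 and 75.3) stood near each other, and the site at 14299402 was 65 bp from AT3G42075. Chromosome 4 at 4547982 scored 75.1 and 77.0 and lay 154 bp from the transcribed pseudogene AT4G07747.

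None of the 15 highest shared sites was in a cluster. All 15 had a summit of ARR12-GFP replicate 1 within 200 bp and 11 had summits of both ARR12-GFP lists. The site at 4547982, for instance, lay 8 bp from a replicate 1 summit but 95747 bp from the nearest of replicate 2. Only 2 of the 15 were inside a protein-coding gene, AT3G23460 (53.7 in Col-0 replicate 1 and 68.3 in replicate 2) and AT5G37430 (57.3 and 42.8). The site 986300 on chromosome 3 was 641 bp from the transcribed pseudogene AT3G03855, and its nearest protein-coding gene was SAUR26, of the small auxin up-regulated RNAs, at 2532 bp. The site 17279688 on chromosome 1 was 929 bp from the lncRNA gene AT1G07317, and its nearest protein-coding gene was VFB1, which encodes an F-box protein, at 1849 bp. The site 2258950 on chromosome 3 was 746 bp from PAP15, a purple acid phosphatase. The site 12670336 on chromosome 3, with scores of 63.7 and 65.9, lay in the overlapping transcribed pseudogenes AT3G31005 and AT3G31161.

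Few genes held a Col-0 summit. Of 37887 nuclear genes, 60 (0.158%) held one of Col-0 replicate 1, 55 (0.145%) one of replicate 2 and 46 (0.121%) one of both, against 6.5% and 5.23% for the ARR12-GFP libraries. Among 27432 protein-coding genes 45 (0.164%) and 41 (0.149%) held one, 33 of them (0.12%) of both lists, against 7.74% and 6.3% with a summit of the ARR12-GFP libraries. Of these 33 genes, 4 were pericentromeric, 10 held a summit of ARR12-GFP replicate 1, 5 one of replicate 2 and 22 of neither.

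The protein-coding genes that held shared sites had various roles. CRN, which encodes CORYNE, a membrane pseudokinase of CLAVATA signalling in meristems, had its summit at chromosome 5, 4254793, in both lists, with scores of 24.9 and 27.7 and the nearest ARR12-GFP summit 7890 bp away. PC-MYB1, a MYB transcription factor of the cell cycle, scored 26.0 and 33.4 on chromosome 4 at 15790433 and 15790434, and a summit of ARR12-GFP replicate 1 lay 15 and 14 bp away. GPAT6, a glycerol-3-phosphate acyltransferase of cutin synthesis, scored 26.2 and 27.0 with no ARR12-GFP summit within 6 kb. ATGRIP, a Golgi protein, scored 33.1 in both lists at chromosome 5, 26408636 and 26408637, 6043 and 6042 bp from an ARR12-GFP summit. These summits differed by 0 to 9 bp between the Col-0 lists. SECA2, a protein translocase of chloroplasts, scored 19.5 and 19.2, and GRF8, a growth-regulating transcription factor, 12.0 and 11.0. The immune receptor gene ADR1-L1 scored 7.84 and 7.77, with ARR12-GFP summits 46 to 80 bp away.

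Auxin response factor genes recurred among them, and were looked at as a group only after this had been seen. Of 20 genes with an ARF symbol, 5 (25%) held a summit of Col-0 replicate 1 and 4 (20%) one of replicate 2. Over all nuclear protein-coding genes these shares were 0.164% and 0.149%. ARF14, ARF15, ARF21 and ARF22, closely related members on chromosome 1, held both. ARF12, ARF13, ARF20 and ARF23, also on chromosome 1, held no summit of any list. ARF14 scored 23.5 and 30.2, ARF15 14.3 and 16.0, ARF21 17.1 and 14.8, and ARF22 11.2 and 14.8. The summits of the 2 Col-0 lists lay 4 to 13 bp apart in these genes. ARF14 also held a summit of ARR12-GFP replicate 1, 6 and 0 bp from the Col-0 summits, and ARF15, ARF21 and ARF22 had no ARR12-GFP summit within 5 kb. Reads that fit several of these related genes cannot be told apart in a summit list. ARF2 held a summit of Col-0 replicate 1 only, and of both ARR12-GFP lists.

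Other gene types can be read only against the 0.158% and 0.145% of all nuclear genes that held a summit, a share at which few genes of a small type would hold one. No tRNA gene of 625 and no snRNA or snoRNA gene of 369 held a Col-0 summit, while 9 and 11 tRNA genes held one of the ARR12-GFP libraries. Among 326 miRNA genes, MIR5642a, MIR5642b and MIR5665 held summits of both Col-0 lists. The MIR5642 genes stand in the rRNA clusters: MIR5642a on chromosome 3 scored 13.3 and 15.5 at 14196926 in both lists, and MIR5642b on chromosome 2 scored 12.4 and 11.7. Among 4843 pseudogenes 5 (0.103%) held a summit of each list, and 4 held both. The 180 nuclear genes of the mitochondrial genome copy on chromosome 2 held none in any of the 4 lists.

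About as many nuclear Col-0 summits had an ARR12-GFP partner as did not. In Col-0 replicate 1, 95 of 199 (47.7%, interval 40.6 to 54.9) lay within 200 bp of a summit of either ARR12-GFP list, 50 of both, 37 of replicate 1 only and 8 of replicate 2 only. In Col-0 replicate 2, 122 of 251 (48.6%, 42.3 to 55.0) did, 69 of both, 45 of replicate 1 only and 8 of replicate 2 only. The windows around both ARR12-GFP lists covered 3.52% of the nuclear span, those of replicate 1 2.74% and those of replicate 2 1.85%. Seen from the longer lists, 113 of 8137 summits of ARR12-GFP replicate 1 (1.39%) and 84 of 5492 of replicate 2 (1.53%) lay within 200 bp of a Col-0 summit. Inside the pericentromeres these shares of ARR12-GFP summits were 12.4% and 9.52%, and outside 1.03% and 1.28%. The ARR12-GFP summits within 200 bp of a Col-0 summit ranked above the middle of their lists, at a median score percentile of 67.2 and 82.7. Among the 20 highest nuclear summits, 0 of replicate 1 (interval 0 to 16.8%) and 2 of replicate 2 (10%, 1.23 to 31.7) were that near. Both intervals include the shares over the whole lists, so these counts are too small to set the top apart.

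Partners were unevenly distributed over the Col-0 summits. In the clusters 18.0% and 21.7% of Col-0 summits had an ARR12-GFP partner, always from replicate 1, and outside the clusters 60.9% and 58.8% had. Within 1000 bp of a protein-coding gene 75% and 73.1% had one, inside protein-coding genes 33.9% and 34.0%, and far from any gene 35.1% and 32.4%. By score the share was highest at both ends. From the lowest to the highest of the 4 score bands it was 72%, 36%, 22.4% and 60% in Col-0 replicate 1 and 76.2%, 41.3%, 19.4% and 57.1% in replicate 2. The 3rd band, with scores of 12.5 to 21.0 in replicate 1 and 10.1 to 20.5 in replicate 2, thus had the fewest partners in both, while the other Col-0 list shared 98.0% and 87.1% of it.

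**Figure D5:**
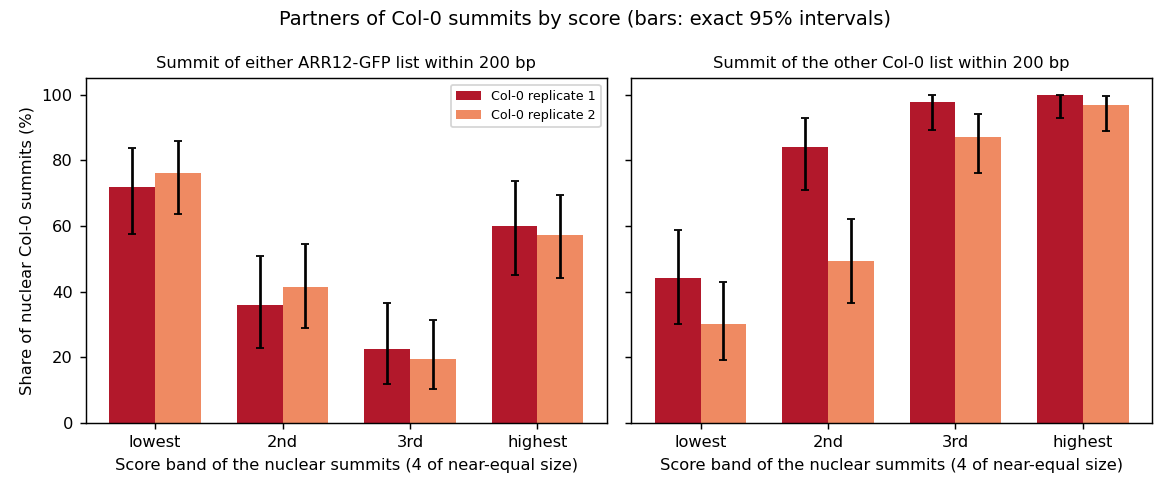
Bars give the share in percent of nuclear Col-0 summits with a summit of either ARR12-GFP list (left) or of the other Col-0 list (right) within 200 bp, by score band in each Col-0 list, with exact 95% intervals. The ARR12-GFP share is lowest in the 3rd band, at 22.4% and 19.4%, and the Col-0 share climbs to 100% and 96.8% in the highest.

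Summits that recurred to within 10 bp and those that recurred more loosely had different shares of ARR12-GFP partners, and differed in score too. Of the summits within 10 bp of the other Col-0 list, 42 of 113 (37.2%) in replicate 1 and 41 of 113 (36.3%) in replicate 2 had a partner, against 73.5% and 73.1% of those 11 to 200 bp away. Every list, ARR12-GFP included, was then cut to the summits at or above its median score. The shares became 29.2% against 26.3% in replicate 1 and 29.2% against 36.4% in replicate 2. The cut left 4094 and 2746 ARR12-GFP summits, so weaker partners were removed as well. Shares of the higher-scoring Col-0 summits against the uncut ARR12-GFP lists were not computed for these groups. The strongest shared sites with no ARR12-GFP summit within 200 bp were chromosome 4 at 3953603 (42.4 and 40.0) and chromosome 3 at 13591998 (40.8 and 37.8), both in clusters, and ATGRIP. They were followed by chromosome 3 at 14197396 (36.1 and 31.0), 249 bp from MIR5642a, and AT5G47540 (26.5 and 40.9).

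Of the unshared nuclear summits, 37 in replicate 1 and 86 in replicate 2, the highest in each list were neighbours. Replicate 1 had a summit of score 16.1 on chromosome 2 at 1083200, and replicate 2 one of 32.2 at 1082811, 389 bp away and thus outside the 200 bp limit. Both lay near AT2G03565, at 1079 and 690 bp. Replicate 2 also had unmatched summits of 25.2 inside AT2G08986, 14.7 at 117 bp from AT5G40680 and 12.8 at 152 bp from KCS3, of the 3-ketoacyl-CoA synthase family. Replicate 1 had one of 11.6 on chromosome 1 at 11355592, 5 bp from AT1G31710. An ARR12-GFP summit lay within 200 bp of 17 (45.9%) and 43 (50%) of the unshared summits.

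On the chloroplast genome the Col-0 libraries differed widely from each other. Chloroplast summits made up 53.5% (229 of 428) and 16.6% (50 of 301) of the Col-0 lists, against 0.465% (38 of 8175) and 0 of 5492, an upper bound of 0.0671%, in ARR12-GFP. The means were 35.1% ± 26.1 in Col-0 and 0.232% ± 0.329 in ARR12-GFP (SD, n = 2 each; exact permutation test, two-sided, p = 0.333, the smallest possible). The difference of 34.8 percentage points became 16.4 without Col-0 replicate 1 and 53.3 without Col-0 replicate 2. The ARR12-GFP shares are set against far more nuclear summits. Scores were low throughout, with a median of 5.28 and a highest value of 11.4 in Col-0 replicate 1, of 3.20 and 5.40 in Col-0 replicate 2, and of 4.29 and 6.98 in ARR12-GFP replicate 1.

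Chloroplast summits did not recur the way nuclear ones did. Within 200 bp, 41 of 229 summits of Col-0 replicate 1 (17.9%) and 35 of 50 of replicate 2 (70%) were shared. Windows around the summits of replicate 1 alone covered 47.0% of the chloroplast genome and those around replicate 2 11.7%. These covers count the whole chloroplast genome, including long stretches empty in each list, of 27397 and 26382 bp in replicate 1. Outside those stretches the covers were therefore higher, and sharing above coverage, here or with ARR12-GFP replicate 1, was not tested. Only 6 summits in each list had a partner within 10 bp, and the median distances of shared summits were 73 and 67 bp. Over the 31 shared chloroplast sites the scores had a Spearman rank correlation of -0.00727, as a description. Of the 38 summits of ARR12-GFP replicate 1, 31 (81.6%) lay within 200 bp of a Col-0 summit, and 15.3% and 22% of the Col-0 chloroplast summits lay within 200 bp of one of them.

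Summits were spread along the chloroplast chromosome with a median spacing of 366.5 bp in Col-0 replicate 1, 1021 bp in Col-0 replicate 2 and 1762 bp in ARR12-GFP replicate 1, apart from a pair of long empty stretches. Col-0 replicate 1 had none from 83951 to 111348 (27397 bp) and none after 127930, and replicate 2 none from 83107 to 111348 (28241 bp) and none after 122683. ARR12-GFP replicate 1 was empty from 83056 to 116425 and after 124484. All 7 chloroplast rRNA genes, which in plants lie in the large inverted repeat, stood in these stretches, so they had no summit in any list. How reads with several matches were treated is not given in the sources used here, and its part in the empty stretches was not tested.

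Elsewhere, genes of many functions held Col-0 summits. Of 129 chloroplast genes 66 (51.2%) held one of Col-0 replicate 1, 24 (18.6%) one of replicate 2 and 21 (16.3%) both, against 28 (21.7%) for ARR12-GFP replicate 1. Per kb of gene, replicate 1 had 2.64 summits in ATP synthase genes, 2.60 in RNA polymerase genes, 2.30 in cytochrome complex genes, 2.23 in photosystem II genes, 2.02 in photosystem I genes and 1.94 in genes of the NDH complex. It had 1.86 in tRNA genes, 1.61 and 1.49 in genes for small and large ribosomal subunit proteins, 0.528 in ycf genes and 2.35 in the 6 genes of other function. These rates count all annotated genes, also those in the empty stretches, such as the copies of ndhB, rpl2, rpl23 and ycf2. This lowers the rates of NDH complex, large ribosomal subunit and ycf genes above all, so the order of functions is not read as a result. In tRNA genes, trnK alone held 9 of the 19 summits. Replicate 2 had between 0 summits (cytochrome complex and ycf genes) and 9 summits (NDH complex) per function, too few to rank the functions. Annotated genes held 75.1% and 76% of the Col-0 summits and cover 70.0% of the chloroplast genome.

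The highest chloroplast summit of Col-0 replicate 1 was at 39910 in psaA, a core subunit of photosystem I, with a score of 11.4 and no partner in Col-0 replicate 2 within 200 bp. The shared site ranked highest was a chain of 10 summits at psbC, which encodes a chlorophyll-binding antenna protein of photosystem II. Its highest summits in the Col-0 lists, with scores of 7.12 and 4.90, were 283 bp apart and were linked through summits between them, and the replicate 1 summit lay outside the gene. Next came a site in atpH, a subunit of the ATP synthase (6.19 and 5.40, 190 bp apart). It was followed by a site whose replicate 1 summit (10.3) lay in rps2, for a protein of the small ribosomal subunit, and whose replicate 2 summit (3.62), 132 bp away, lay outside any gene. In ndhF, of the NDH complex, both lists had the summit 111348, at the edge of an empty stretch, with scores of 7.82 and 4.35. The remaining sites of the first 10 lay in psbB, rps4, rps3, rpoC1 and, for 2 of them, psaB.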

How the data were processed

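Members and lists were chosen with earlier results of these data known. The authors used MACS2 2.1.0, SAMtools, Bowtie 1.1.1 and FastQC 0.11.2 with TAIR10, per the submitters' processing notes, with settings not given in the sources used here. Every list deposited by the authors holds 1-base summits of 1 library with a −log10 p-value or q-value (which is not stated; lowest 2.00), used to rank or filter within a list. The inputs were not analysed here on their own.

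Genes came from a RefSeq table of TAIR10.1 without strand, exons or sequence, so no gene coordinates or sequences are given. Summits of ARR12-GFP replicate 1 inside protein-coding genes made up 29.1%, and 57.9% and 57.3% after moves of -2000 and 2000 bp. Shares per library were compared by exact permutation. Named genes were the nearest of any kind to the 15 highest shared nuclear and 10 highest shared chloroplast sites, rRNA genes, holders of shared sites, and the 5 highest unshared or partnerless summits; GRF8, SECA2, ADR1-L1, SAUR26, VFB1, the ARF and miRNA genes were named after their values were seen. The code was tested on simulated lists. Software was pandas 2.3.3, SciPy 1.17.1, NumPy 2.4.6 and matplotlib 3.10.9 under Python 3.11.15.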

Additional observations from a re-analysis of the deposited data

How the results depend on the processing

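The differences between Col-0 and ARR12-GFP kept their sign under every alternative run: 21.9 to 50.2 percentage points for the pericentromere share, -28.8 to -5.71 for the share near protein-coding genes and 16.0 to 53.3 for the chloroplast share. The 16.0 points, for summits at or above the median score, rest on 31.9% in Col-0 replicate 1 alone: Col-0 replicate 2 and both ARR12-GFP lists had 0 chloroplast summits there (exact permutation test, p = 1). With the replicate number as a block they were 40.5, -22.2 and 34.8 points, and the exact permutation by sign flips gave p = 0.5 for each, the smallest that 4 flips allow; no test here can reach 0.05, so calls could not change.

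The shared share of nuclear summits of Col-0 replicate 2 was 84.8% for summits at or above the median score of each list and 58.2% without the clusters. The shared share of chloroplast summits was 10.5% at 100 bp, 38.9% at 500 bp and 0% above the median score in Col-0 replicate 1, and 50% at 100 bp and 96% at 500 bp in Col-0 replicate 2, which had no chloroplast summit above the median. Of all nuclear Col-0 summits, 48.2% had an ARR12-GFP partner, against 40.4% at 100 bp, 54.4% at 500 bp, 28.9% above the median score and 59.7% without the clusters. Leaving out 1 library gave 30% to 48.6%, the lowest without ARR12-GFP replicate 1. Fewer summits enter the score filter; other causes were not tested. Read depth, which limits how many summits are called, is unknown.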
